A study of Mus musculus with 17 samples.

Results

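The regions described here are 743 stretches of mouse chromatin that were more accessible in bone marrow plasma cells that lack Dnmt3a and Dnmt3b, the de novo DNA methyltransferases, than in control plasma cells, and less accessible in control B cells of earlier stages than in control plasma cells. They were selected on the measured values among 66177 accessible regions, of which 64528 lie outside chromosomes X, Y and M. A region was taken if the lower of the 2 Dnmt3-deficient (KO) plasma cell libraries was at least 1.5 times the highest of the 3 control (C) plasma cell libraries, if the KO mean was at least 3 RPPM (the deposited unit, in which the reads in a region are scaled to a fixed total of reads in all regions of the library), and if the C means of naive B cells and germinal center B cells were both below the C plasma cell mean. The KO part of this rule was met by 1849 regions, and 743 of them (40.2%) also met the last condition. The remaining 1106 gained regions, in which control naive or germinal center B cells were at or above the control plasma cells, serve below as the closest comparison.

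DNA methyltransferases of the Dnmt3 family place methyl groups on CpG dinucleotides that were not methylated before, whereas the maintenance enzyme copies existing marks after replication. Methylated DNA is in general less accessible to many transcription factors, and ATAC-seq reads accessibility by where a transposase can insert sequencing adapters. Plasma cells are the antibody-secreting end stage of B cells, and their identity depends on Blimp-1 (Prdm1), Irf4 and Xbp1, together with E proteins such as E2A and E2-2, which bind E-box sequences.

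All mice carried floxed Dnmt3a and Dnmt3b alleles on a mixed background labelled B6;129S4. KO mice carried in addition 1 Cre allele and C mice were littermates without it, so both carried the floxed alleles. Cre acts from the pro-B and pre-B stage on, before every cell type measured. Sorted cells of young adult mice were used. Naive B cells (nB; B220+, Fas-, GL7-) came from lymph nodes of unimmunized male mice, with 3 C and 2 KO libraries. Germinal center B cells (GCB; B220+, Fas+, GL7+, binding phycoerythrin, PE) came from lymph nodes 30 days after immunization with PE in complete Freund's adjuvant, with 2 C and 4 KO libraries, each a pool of 2 mice. The C GCB pools were 1 female and 1 male, and the KO GCB pools were 3 female and 1 male. Plasma cells (BMPC; CD138+) came from the bone marrow of immunized female mice, with 3 C and 2 KO libraries, and a further KO BMPC library was not used here. Cell type therefore cannot be told apart from tissue, sex and immunization in a comparison of nB with BMPC, nor from tissue in one of GCB with BMPC. Between KO nB and KO GCB the tissue was shared, immunization differed, and 1 KO GCB pool was male like the nB mice.

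Reads in regions ranged from 4104875 to 6079018 per nB library, from 907959 to 2280954 per GCB library and from 5357687 to 8232313 per BMPC library, so that 3 reads stood for as little as 0.364 RPPM and as much as 3.30 RPPM. The labelled cell type was checked on plasma cell genes, whose summed promoter level was higher in every BMPC library than in every nB library. The 9 promoter regions of 6 plasma cell genes (of 8 names listed, among them Prdm1, Xbp1, Irf4 and the B cell maturation antigen gene Tnfrsf17) summed to 345 to 393 RPPM in C BMPC and 356 to 360 in KO BMPC, against 261 to 293 in nB. Single regions did not all follow the sum. C means in nB and BMPC were 57.4 and 44.1 RPPM at an Irf4 promoter, 52.1 and 32.4 at a Prdm1 promoter and 1.23 and 0.963 at a Slamf7 promoter. The rest of the 9 regions had higher C means in BMPC than in nB. Of 11 lists for other cells, the summed promoter level of KO BMPC was above every C BMPC library in 2, below every one in 3 and overlapping in 6. The 6 promoter regions of monocyte and macrophage genes (6 of 15 genes) summed to 43.4 to 48.1 RPPM in C BMPC and 55.6 to 55.9 in KO BMPC, the 2 of erythroid genes (2 of 14) to 58.8 to 61.3 and 61.8 to 67.8, and the 6 of NK cell genes (6 of 11) to 24.2 to 28.5 and 15.7 to 18.1. The sums were 80.5 to 89.0 in C and 55.9 to 74.7 in KO for 7 promoter regions of pro-B and pre-B cell genes, and 185 to 192 and 164 to 172 for 9 of dendritic cell genes. Both of these lists hold the same promoter region of Flt3, with means of 47.6 RPPM in C BMPC and 30.2 in KO BMPC. Their lower KO sums are therefore not independent of each other. None of the promoters in these lists was at or under 3 reads in all 5 BMPC libraries, none was called between KO and C BMPC, and the part of such cells in the member regions was not tested.

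Sequence was shown first for 8 members, because the share of regions that held a short DNA word was higher among members than among other regions. The E-box CACCTG, bound by E2A and related proteins, is printed in capitals on either strand (CAGGTG on the printed strand is the same site), as are the palindromic E-box CAGCTG and the ETS-IRF composite word GGAANNGAA (TTCNNTTCC on the other strand), which PU.1 or a related factor can bind together with Irf4. Each line holds the central 200 bases of the region, plus strand, read from mouse build NCBIM37 (mm9). Fam129c, Gpc6 and Glcci1 were among the 10 members with the largest gain, Cdc42bpb and Arid1b belong to genes with several members, Il6ra and Fam129a were higher in KO GCB than in KO nB, and Dok3 belongs to the list of inhibitory receptors.
Fam129c chr8:74126732-74126931: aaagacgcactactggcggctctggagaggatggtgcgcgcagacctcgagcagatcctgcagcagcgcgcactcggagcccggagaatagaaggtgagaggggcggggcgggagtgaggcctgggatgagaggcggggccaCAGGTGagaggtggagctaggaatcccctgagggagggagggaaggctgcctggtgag
Gpc6 chr14:118243610-118243809: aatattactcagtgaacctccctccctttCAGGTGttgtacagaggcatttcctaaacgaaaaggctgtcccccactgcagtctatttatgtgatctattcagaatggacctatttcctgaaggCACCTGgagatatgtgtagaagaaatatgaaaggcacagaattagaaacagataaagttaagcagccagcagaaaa
Glcci1 chr6:8362910-8363109: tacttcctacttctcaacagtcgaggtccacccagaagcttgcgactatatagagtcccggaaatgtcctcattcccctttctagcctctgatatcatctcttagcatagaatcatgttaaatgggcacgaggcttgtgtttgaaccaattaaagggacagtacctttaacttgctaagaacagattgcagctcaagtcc
Cdc42bpb chr12:112570742-112570941: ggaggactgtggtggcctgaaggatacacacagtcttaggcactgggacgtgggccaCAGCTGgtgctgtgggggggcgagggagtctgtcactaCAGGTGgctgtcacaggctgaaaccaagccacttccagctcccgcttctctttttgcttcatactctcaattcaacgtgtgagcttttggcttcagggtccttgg
Arid1b chr17:5277154-5277353: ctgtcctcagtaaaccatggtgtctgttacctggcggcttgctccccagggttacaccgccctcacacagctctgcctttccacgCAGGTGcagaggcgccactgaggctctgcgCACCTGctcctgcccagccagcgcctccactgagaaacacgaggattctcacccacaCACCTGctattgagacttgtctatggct
Il6ra chr3:89681971-89682170: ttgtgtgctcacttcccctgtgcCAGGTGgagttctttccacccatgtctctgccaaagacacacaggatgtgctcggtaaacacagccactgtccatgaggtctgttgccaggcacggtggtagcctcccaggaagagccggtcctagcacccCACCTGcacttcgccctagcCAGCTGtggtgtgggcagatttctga
Dok3 chr13:55627426-55627625: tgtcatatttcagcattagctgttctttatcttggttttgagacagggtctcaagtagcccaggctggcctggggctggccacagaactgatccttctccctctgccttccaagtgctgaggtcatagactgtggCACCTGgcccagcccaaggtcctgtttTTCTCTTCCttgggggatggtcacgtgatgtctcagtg
Fam129a chr1:153533862-153534061: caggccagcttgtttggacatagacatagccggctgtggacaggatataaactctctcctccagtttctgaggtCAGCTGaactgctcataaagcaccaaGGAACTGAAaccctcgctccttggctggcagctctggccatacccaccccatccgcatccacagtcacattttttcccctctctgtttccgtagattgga

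Fam129c lies over a coding exon and its intron and held 12 CpG dinucleotides, the most of these 8 windows. Gpc6 (intronic) held 1 CpG and 2 CACCTG sites, Arid1b (intronic) held 3 CACCTG sites and 7 CpG, and Il6ra (exon and intron) held 2 CACCTG sites and 1 CAGCTG site. Dok3 and Fam129a (both intronic) each held 1 composite word together with 1 E-box, and Glcci1 (intronic) held none of the 3 words. The 8 windows are examples and do not give the share of members with a match. The central 200 bases of Pxn and Myb, also among the 10 largest gains, held none either. In the central 300 bp, 214 of 741 members (28.9%) held none of the 3 words, against 51.6% of all regions.

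Most members were weakly accessible in control cells, and their median passed that of all regions in KO plasma cells. The median over members was 0.755 RPPM in C nB, 1.57 in C GCB, 3.36 in C BMPC and 8.41 in KO BMPC. Over all regions outside chromosomes X, Y and M, the medians were 5.11, 5.93, 4.83 and 5.36 RPPM in the same groups. In KO cells of the earlier stages, the median over members was 0.723 RPPM in nB and 2.28 in GCB. Of the 743 members, 566 (76.2%) lay above the KO BMPC median of all regions, and 217 (29.2%) were above the C BMPC median of all regions already in C BMPC. The levels in C nB, C GCB, C BMPC and KO BMPC were used by the rule and are given as a description.

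**Figure D1:**
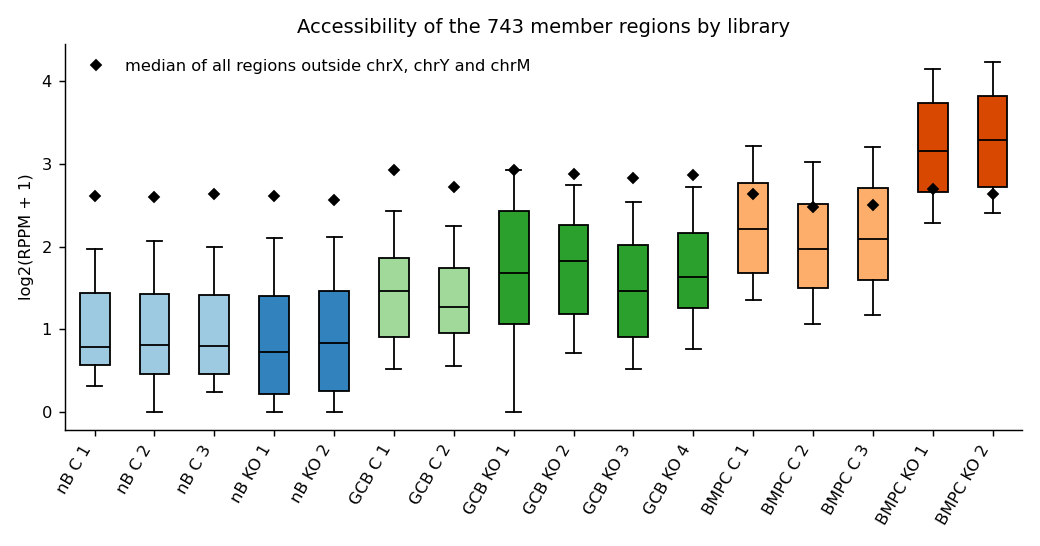
Accessibility of the 743 members in each of the 16 libraries as log2(RPPM + 1). Boxes span the quartiles with the median as a line, whiskers reach the 10th and 90th percentiles, and diamonds mark the median of all 64528 regions outside chromosomes X, Y and M. Member medians lie below the diamond in the nB, GCB and C BMPC libraries and above it in both KO BMPC libraries.

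The rule asked that control cells of the earlier stages were lower than control plasma cells, which is less than asking that they were closed. In 174 members (23.4%) both C nB and C GCB averaged at most 1 RPPM, and in 135 (18.2%) every C nB and C GCB library held at most 3 reads. At the other end, 141 members (19.0%) had at least 3 RPPM in C nB or C GCB, and in 269 (36.2%) 1 of these 2 means was within 1.5 times of the C BMPC mean. C BMPC itself averaged at least 3 RPPM in 411 members (55.3%), and 1 member was at or under 3 reads in every C BMPC library. The members are therefore called here regions gained in KO plasma cells above a low earlier level, and a name such as never open before would hold for the first of these subsets alone, at the depth of these libraries.

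The KO nB and KO GCB libraries did not enter the rule, but the values they are set against here did, so their position is a description. The KO nB mean was below the C BMPC mean in 712 members (95.8%), against 95.4% of 19658 further regions that were highest in BMPC among control cells but were not gained in KO, a set chosen after seeing the data, and 52.6% of all regions. The KO GCB mean was below the C BMPC mean in 551 members (74.2%), against 92.1% of those further regions and 44.1% of all regions. The KO GCB mean reached the KO BMPC mean in 4 members, and the KO nB mean in 0.

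The gain in KO BMPC varied widely among members. The ratio of the KO mean to the C mean had a median of 2.39 and ranged from 1.60 to 10.4, with quartiles of 2.06 and 2.95. The lower KO library was at least 2 times the highest C library in 230 members and at least 3 times in 40. The 2 KO libraries were close to each other, with the larger a median of 1.15 times the smaller and at most 2.73 times. Members nearest the limit of 1.5 were regions of Cap1 and Bik at 1.5002, and the nearest regions outside it, by Mir29b-1 and Kcnab2, were at 1.4998 and 1.4989. At the limit of 3 RPPM, members by Rreb1 and Tle3 both averaged 3.0071 in KO BMPC, while regions by Zhx2 (2.9879) and Slc26a5 (2.9834) fell outside. For the earlier stages, Hivep2 was just inside with 5.96 RPPM in C nB against 5.97 in C BMPC, as was a region without a symbol with 0.908 RPPM in C GCB against 0.910, and Mcl1 was just outside with 6.62 RPPM in both C GCB and C BMPC, as was Plekha1 with 1.14 in both.

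**Figure D2:**
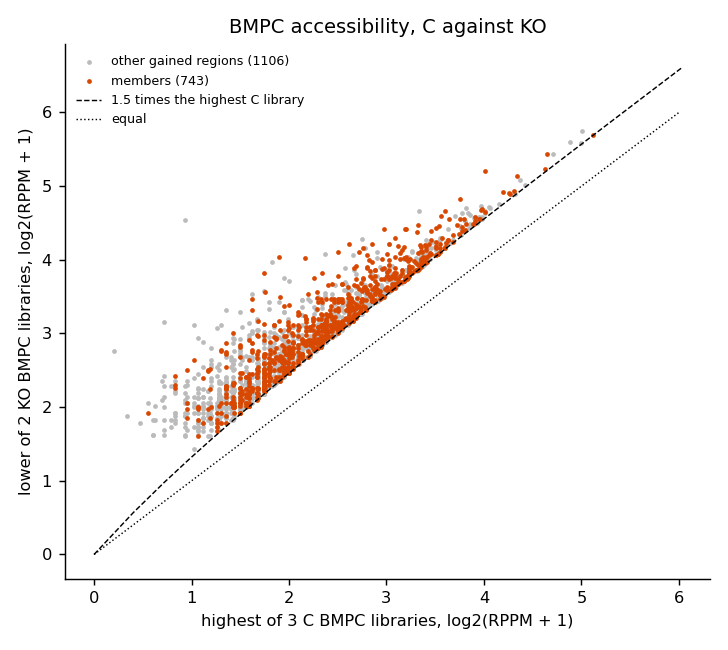
Highest of the 3 C BMPC libraries (x) against the lower of the 2 KO BMPC libraries (y), both as log2(RPPM + 1), for the 743 members and the 1106 other gained regions. The dashed line marks 1.5 times the C value and the dotted line equality. All points lie on or above the dashed line because the rule placed them there. The C BMPC median was 3.36 RPPM for members and 2.05 for the other gained regions. The rule also bears on this difference, since it asked that C BMPC be above C nB and C GCB in members.

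The spread of calls in the same contrast is given for scale and supports nothing, since it was the contrast of the rule. With limma on log2(RPPM + 1) and calls at a 2-fold difference with adjusted p no larger than 0.01, 60 of all regions were called higher in KO BMPC (0.0907%) and 8 of the 743 members were among them. With edgeR's likelihood ratio test on the reads, 1329 regions were called higher (2.01%), 407 of them members. In both fits 0 members were called lower.

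The 10 members with the largest gain lay mostly within genes. The intronic region of Sept9, a septin of the cytoskeleton (chr11:117169204-117169674), had 2.73, 2.19 and 1.56 RPPM in the 3 C BMPC libraries and 15.5 and 17.5 in the KO libraries. In nB it had 1.95, 1.88 and 2.23 RPPM in C and 3.29 and 3.35 in KO, and in GCB 1.32 and 2.34 in C and 4.41, 7.64, 3.07 and 4.19 in KO. Both KO BMPC libraries were thus above every other library. A region 7698 bp from Ube2d2a, a ubiquitin-conjugating enzyme gene, had 1.95, 2.01 and 2.34 RPPM in C BMPC and 13.1 in each KO library, while the highest of the 11 nB and GCB libraries had 1.87.

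The region of Grb7, an adaptor of receptor tyrosine kinases (chr11:98307891-98308636, overlapping its promoter and 5′ untranslated exon), had 2.73, 3.47 and 3.27 RPPM in C BMPC and 15.3 and 20.0 in KO. The exonic and intronic region of Fam129c (chr8:74126536-74127127) had 2.08, 1.46 and 1.25 RPPM in C BMPC and 10.7 and 10.1 in KO, with 4.41, 3.82, 4.38 and 3.50 in KO GCB against 1.76 and 1.41 in C GCB. Pxn, which encodes the focal adhesion adaptor paxillin, carried a region at an internal promoter (chr5:115993635-115994178) with 1.82, 2.37 and 2.02 RPPM in C BMPC and 12.3 and 10.8 in KO. In these 3 regions the KO and C BMPC libraries did not overlap, as the rule demanded. In Sept9, Fam129c and Pxn the KO GCB libraries also lay above the C GCB libraries, which the rule held low, as they did in 119 of the 743 members and in 7.49% of all regions.

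Glcci1, a glucocorticoid-induced gene, had an intronic region (chr6:8362842-8363176) at 2.08, 1.64 and 1.40 RPPM in C BMPC and 8.99 and 11.0 in KO. A region without a symbol in the deposited annotation (chr5:123752402-123753031) had 1.04, 0.547 and 0.934 RPPM in C BMPC and 5.95 and 5.23 in KO, and at most 0.731 in any nB library. Myb, the transcription factor of blood progenitors, carried a region over a promoter and exon (chr10:20864619-20865283) with 4.68, 4.38 and 3.27 RPPM in C BMPC and 16.9 and 16.2 in KO. That region was at 0.494 to 1.13 RPPM in nB, at 1.32 and 1.41 in C GCB and at 9.91, 5.73, 1.32 and 2.80 in KO GCB, so the KO GCB libraries spanned a wide range. Another promoter region of Myb (chr10:20880586-20881396) was more accessible and not gained, with means of 35.9 RPPM in C BMPC and 33.7 in KO BMPC.

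Atg16l2, of the autophagy machinery, had a region over an exon and intron (chr7:108445180-108445833) with 2.99, 3.47 and 5.14 RPPM in C BMPC and 17.6 and 20.5 in KO. The intronic region of Gpc6, a glypican of the cell surface (chr14:118243439-118243979), had 0.780, 0.365 and 0.779 RPPM in C BMPC and 4.37 and 5.97 in KO, and at most 0.487 in nB. Its KO mean was 8.07 times its C mean.

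**Figure D3:**
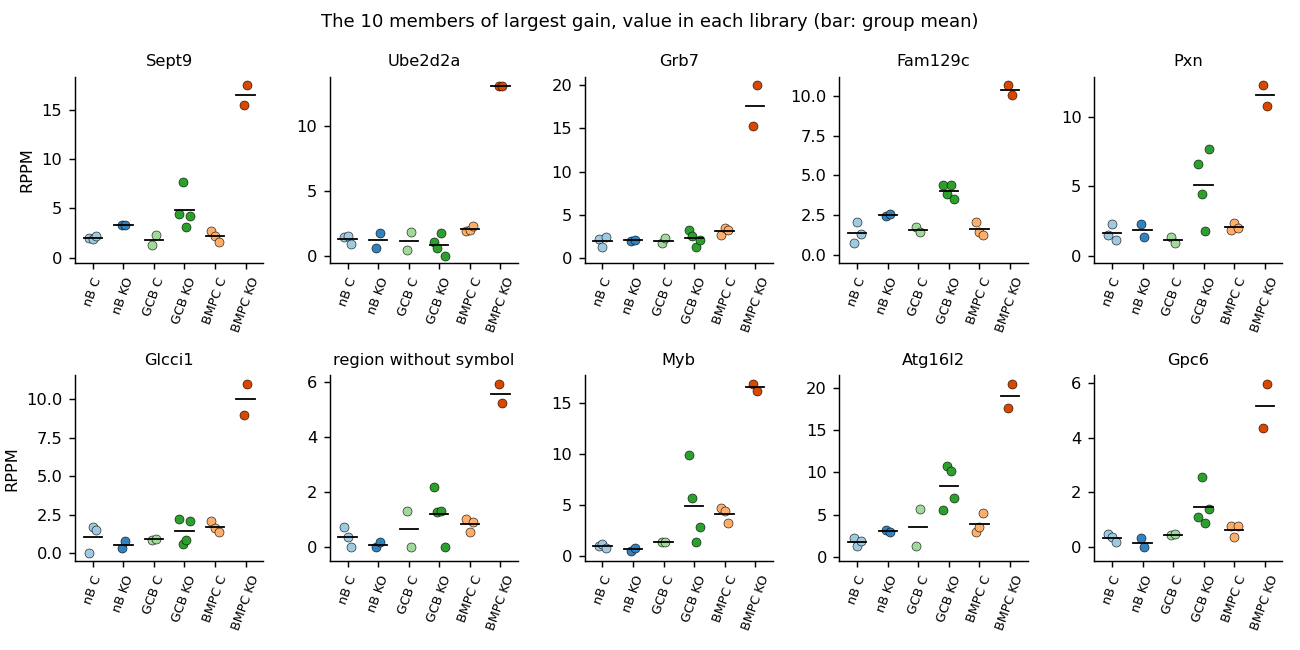
RPPM in each library for the 10 members with the largest ratio of the lower KO to the highest C BMPC library (after adding 1 RPPM to both), 1 panel per region. Points are libraries, bars are group means, and the vertical scales differ between panels; the 2 KO BMPC points stand above all others in every panel, and the KO GCB points range widely for Myb (1.32 to 9.91 RPPM).

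The members that were most accessible in KO BMPC started from a higher control level. The region of Sema5a, a semaphorin gene (chr15:32195016-32196806), had 33.7, 29.6 and 27.6 RPPM in C BMPC and 50.9 and 52.3 in KO. Tchp, whose product binds keratin filaments, had 23.0, 13.1 and 24.0 in C BMPC and 42.5 and 42.7 in KO at its 3′ end. The promoter region of F2rl1, the protease-activated receptor 2 gene (chr13:96293864-96295493), had 15.1, 10.0 and 11.7 in C and 37.2 and 35.8 in KO, and exonic and intronic Celf2, an RNA-binding splicing factor gene (chr2:6466250-6467036), had 19.5, 23.7 and 21.8 in C and 36.7 and 37.9 in KO. A region 101727 bp from Ccdc68 had 17.6, 17.7 and 19.3 in C and 35.2 and 34.3 in KO. In these 5 the KO mean was 1.70 to 2.98 times the C mean.

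Several members were assigned to the same gene symbol. Cdc42bpb, a kinase that acts downstream of the small GTPase Cdc42, held 5 members among its 10 regions. They were all within the gene, and their C BMPC means of 0.893 to 10.5 RPPM stood beside KO means of 4.21 to 23.7. Nsmce2, the SUMO ligase of the SMC5/6 complex, was assigned 5 members among 32 regions, with KO means of 8.95 to 20.6 RPPM. These include a region 13691 bp outside the gene. Sept9, Glcci1, Celf2, Ankrd55 and Arid1b (a subunit of the BAF chromatin remodeler) were assigned 4 each. Not all of these lay within the gene: members of Sept9 were 113410 and 114392 bp away, and members of Ankrd55 29517 and 94690 bp away. Members were spread over 561 gene symbols in all, 63 had none, and 210 (28.3%) had another member within 50000 bp between centers, against 35.8% of the other gained regions with another of theirs. These shares depend on the size of the set (743 and 1106 regions), so they do not compare clustering.

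Members lay mostly in introns and between genes. Promoters held 48 members (6.46%), against 21.5% of all regions and 6.87% of the other gained regions. Introns without promoter or exon held 42.5% (all regions, 35.6%), and 35.5% lay outside transcripts and promoters (33.0%). The median distance from the region center to the nearest start was 17666 bp, against 11656 bp for all regions and 18293 bp for the other gained ones. Regions with a 3′ untranslated exon made up 4.98% of members and 2.83% of all regions. Assembled autosomes contributed from 0.756% (chromosome 4) to 1.71% (chromosome 19) of their regions, around 1.15% for the whole, and 2 members lay on unplaced sequence.

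CpG content, the substrate of the missing enzymes, was close to that of other distal regions. In the central 300 bp, members held a mean of 5.76 CpG and the other gained regions 5.77, against 8.86 for all regions. Outside promoters the means were 5.44 for members, 5.40 for the other gained regions and 5.10 for all regions. Windows without any CpG made up 2.56% of members and 4.86% of all regions, and GC content had a median of 49.7% in members and 49.3% in all regions.

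E-boxes were the most frequent shared word. CACCTG was found in the central 300 bp of 353 of 741 members with sequence (47.6%, Wilson 95% interval 44.1 to 51.2), in 32.5% of the other gained regions, and in 27.0% of all regions. In the 19658 regions highest in BMPC but not gained it was found in 31.9%. Outside promoters the shares were 48.3% of members, 32.5% of other gained regions, 36.0% of the regions highest in BMPC and 28.3% of all regions. With promoters included, CAGCTG was in 32.4% of members, 27.0% of other gained regions, 23.9% of regions highest in BMPC and 20.7% of all regions. At least 1 of both words was in 65.0% of members and 41.3% of all regions. The matches were denser near the center: within 50 bp after it, members held 15.0 CACCTG sites per 100 regions, against 7.15 per 100 in the 50 bp farthest upstream, and all regions held 6.07 and 4.53. The share depended on the window, since over whole regions CACCTG was in 58.0% of members and 55.4% of the regions highest in BMPC, whose median width was 706 bp against 484 bp. Over the central 150 bp it was in 31.0% of members and 19.0% of the latter. For CAGCTG the order turned with the window, from 21.1% of members and 13.7% of the regions highest in BMPC over the central 150 bp to 40.2% and 43.0% over whole regions. Genes of a shared neighborhood and overlapping words make these windows dependent, and no test was made.

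The ETS-IRF composite word was in 17.5% of members and 18.9% of the other gained regions, against 11.5% of all regions and 10.1% of those highest in BMPC. PU.1's longer word GAGGAAGT was in 5.40% of members, 11.8% of the other gained regions and 6.98% of all regions. The words divided among members by their level before the plasma cell stage. In members with C nB and C GCB at most 1 RPPM, CACCTG was in 52.0%, the composite in 9.83% and the longer PU.1 word in 2.89%. In members with at least 3 RPPM in C nB or C GCB, the shares were 40.4%, 23.4% and 10.6%. Across the size of the gain, CACCTG was in 45.9% of members with a ratio of at least 2 and in 48.4% of those below, and among the 40 members with a ratio of at least 3 it was in 60.0% and the composite in 2 of them. RUNX words (20.8% of members, 24.6% of all regions) and the CTCF word (6.34% and 8.18%) were not more frequent in members. A match says that the letters are present, not that a factor was bound.

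**Figure D4:**
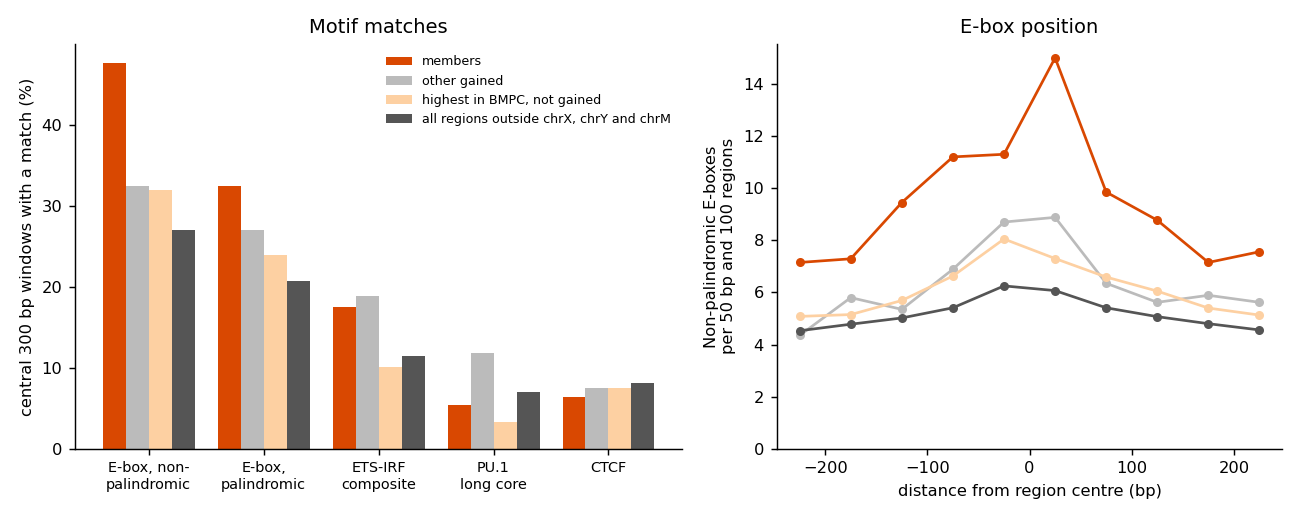
Left, share of central 300 bp windows with a match to the non-palindromic E-box, the palindromic E-box, the ETS-IRF composite, the longer PU.1 word and the CTCF word, in 4 sets of regions. Right, non-palindromic E-boxes per 50 bp and 100 regions by distance from the region center; members peak at 15.0 near the center, and the other sets stay below 9.

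Between KO germinal center B cells and KO naive B cells, whose libraries the rule did not use, members were mostly higher in GCB. The C libraries of both stages, which the rule did use, stood in the same order. Their medians over members were 0.755 RPPM in C nB and 1.57 in C GCB, so the comparison is not independent of the rule. The KO GCB mean was above the KO nB mean in 662 members (89.1%), against 57.1% of all regions, 61.3% of the other gained regions and 59.3% of the regions highest in BMPC but not gained. With limma on log2(RPPM + 1) over all 16 libraries and the same limits, 181 members were higher (24.4%) and 2 lower (0.269%), where 18.4% of all regions were called higher and 7.84% lower. The median log2 difference was 0.74 in members and 0.12 over all regions. Scaling mattered. With quantile normalization 47 members were higher and 20 lower, where 11.6% of all regions were called higher and 11.3% lower, and the medians were 0.20 in members and -0.07 over all regions. Other weakly accessible regions also mostly read higher in KO GCB than in KO nB. Every GCB library was shallower than every nB library, so depth cannot be told apart from cell type here. Among 16122 other regions with a mean between the members' quartiles (1.83 to 4.24 RPPM, a comparison added after seeing the data), 71.0% had a higher KO GCB mean, 24.8% were called higher and 5.20% lower, while of the 371 members in that range 91.4% had a higher mean, 24.3% were called higher and 0 lower. The share of members called higher was thus near that of regions with a like mean over all 16 libraries. In the groups compared, however, the levels were not alike. The 371 members had medians of 0.739 RPPM in KO nB and 2.31 in KO GCB, and the 16122 other regions 2.12 and 3.42. This set is therefore not a background at the members' own level in KO nB and KO GCB. Leaving out nB KO replicate 1 or replicate 2 left 1 KO nB library. The median log2 difference was then 0.72 and 0.77 in members, against 0.13 and 0.11 over all regions. Fewer members were called higher in both fits, and not a larger share than of all regions.

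**Figure D5:**
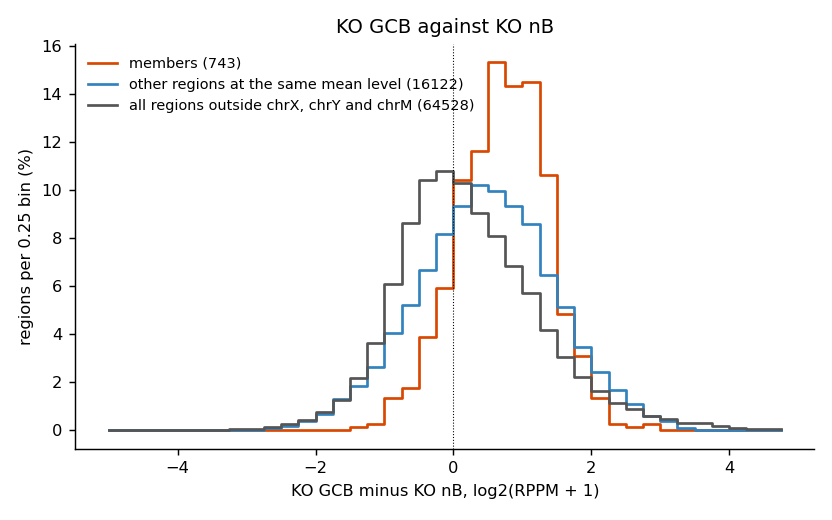
Distribution of the difference between KO GCB and KO nB, as fitted on log2(RPPM + 1), in bins of 0.25, for the 743 members, 16122 other regions with a mean between the members' quartiles and all 64528 regions outside chromosomes X, Y and M. The members' curve lies mostly to the right of 0, with a median of 0.74. The other regions, matched on the mean over all libraries and not on KO nB and KO GCB alone, have a median of 0.48.

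Among the named members that differed, an intronic region of Fam129a, also known as Niban (chr1:153533711-153534211), had 0.165 and 0.787 RPPM in KO nB and 11.0, 12.1, 8.77 and 10.5 in KO GCB, a log2 difference of 3.00 (SE 0.28, adjusted p = 1.5e-09 by limma). The control libraries of this region stood at 0, 0 and 0.372 RPPM in nB and at 5.28 and 7.49 in GCB. Akr7a5, an aldo-keto reductase gene, differed by 2.96 (SE 0.35, adjusted p = 8.9e-08 by limma), from 0 and 0.984 RPPM in KO nB to 4.41, 11.5, 12.7 and 14.7 in KO GCB. Polk, a translesion DNA polymerase gene, differed by 2.73 (SE 0.31, adjusted p = 5.1e-08 by limma), and F2rl1 by 2.35 (SE 0.30, adjusted p = 3.3e-07 by limma). Control cells differed in the same direction. C means in nB and GCB were 0.719 and 11.3 RPPM for Akr7a5, 1.94 and 7.62 for Polk, and 3.65 and 11.3 for F2rl1. For each of these 4, the KO GCB libraries were all above the KO nB libraries, and in Fam129a, Akr7a5 and F2rl1 the KO BMPC libraries were higher again, whereas in Polk 1 KO GCB library (17.6 RPPM) was above both KO BMPC libraries (16.4 and 16.1).

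The 2 members lower in KO GCB were an intronic region of the kinase gene Map3k1 (chr13:112567371-112568005) and a region 57681 bp from Cryaa (chr17:31876351-31876893). Map3k1 had 6.25 and 4.92 RPPM in KO nB and 2.20, 1.27, 2.19 and 1.40 in KO GCB, a log2 difference of -1.26 (SE 0.29, adjusted p = 7.0e-04 by limma). Cryaa had 3.45 and 4.92 RPPM in KO nB and 3.30, 0.636, 0.438 and 1.40 in KO GCB, a difference of -1.21 (SE 0.36, adjusted p = 6.2e-03 by limma). Without nB KO replicate 1 the Map3k1 difference was -1.12 (adjusted p = 0.027 by limma) and no longer called. Cryaa kept its direction and was not called without nB KO replicate 1 (-1.41, adjusted p = 0.022 by limma), without nB KO replicate 2 (adjusted p = 0.099), or without GCB KO replicate 2 or 3 (adjusted p = 0.018 and 0.021). Their KO BMPC libraries were at 16.2 and 16.1, and at 17.6 and 17.7 RPPM. In control cells both were also lower in GCB than in nB, with C means of 2.93 against 4.79 RPPM for Map3k1 and 1.61 against 4.60 for Cryaa.

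The members with the highest KO nB levels lay near or in Tle3, Nsmce2, Ube2d2a and Hivep2. A region 23861 bp from Tle3, a corepressor gene, had 8.39 and 7.48 RPPM in KO nB and 20.4 and 26.1 in KO BMPC, and it had 1.10, 10.2, 6.14 and 4.89 in KO GCB. An intronic region of Nsmce2 had 8.88 and 8.27 in KO nB and 19.7 and 21.5 in KO BMPC. A second region near Ube2d2a and one in Hivep2 had KO nB means of 9.02 and 7.95 RPPM. The highest KO GCB means were those of Celf2 (18.8), Sema5a (14.6), F2rl1 (13.9) and a region 25958 bp from the kinase gene Rps6ka1 (12.3).

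No member was called between KO and C within the earlier stages in the fit without a block. The KO GCB mean was above the C GCB mean in 578 members (77.8%, against 56.6% of all regions), but C GCB was held low by the rule, so nothing is read from this share. With limma 0 members were called higher in KO GCB, where 0.0317% of all regions were (21 regions). At an unadjusted p under 0.05, 134 members were higher (18.0%, against 7.45% of all regions) and 7 lower, a count that rests on the same low C GCB values, and edgeR's quasi-likelihood test, its likelihood ratio test and DESeq2 each called 0. In nB the KO mean was above the C mean in 350 members (47.1%, all regions 46.4%), and limma, the edgeR tests and DESeq2 called 0 members in either direction, with 4 higher and 2 lower at an unadjusted p under 0.05 by limma.

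Genes of the B lineage held members at about the rate of all regions. Of 2783 regions assigned to 219 genes in 8 lists (7 of them given singly here), 24 were members (0.862%), near the 1.15% of all regions, and 62 (2.23%) were other gained regions, beside 1.71% of all regions. B cell receptor signaling held 3 of 468, against 20 other gained regions. Transcription factors of the lineage held 9 of 870, in Foxp1 (3), Foxo1 (2), Tcf4 (2), Id2 and Aff3. Plasma cell factors held 3 of 332 (Prdm1, Cxcr4 and Cd9), migration and adhesion 3 of 291 (Ccr7, Cxcr4 and Cxcr5), inhibitory receptors 2 of 131 (both in Dok3), costimulation 1 of 275 (Il6ra), and DNA methylation enzymes 0 of 86. Lists for other cell types held 7 members of 416 regions (1.68%), in Pecam1 (3), Myb, Kit, Ltf and Ly6c2.

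In B cell receptor signaling, the intronic region of Nfatc2, a calcineurin-dependent transcription factor gene (chr2:168405772-168406434), had 5.59, 5.29 and 6.38 RPPM in C BMPC and 16.6 and 13.6 in KO. In Il6ra, the interleukin 6 receptor gene (chr3:89681813-89682327), C BMPC had 9.62, 7.48 and 8.25 RPPM and KO BMPC 17.5 and 17.0. Both were also higher in KO GCB than in KO nB, by 1.81 (SE 0.31, adjusted p = 2.1e-05 by limma) and 1.94 (SE 0.36, adjusted p = 6.2e-05 by limma) on the log2 scale. C means in nB and GCB were 1.32 and 5.64 RPPM for Nfatc2, and 0.450 and 1.36 for Il6ra. Dok3, an adaptor that restrains B cell receptor signaling (chr13:55627309-55627742), had 11.4, 11.3 and 11.5 RPPM in C BMPC and 22.6 and 26.3 in KO. Aff3 had 3.51, 2.37 and 1.71 RPPM in C BMPC and 8.14 and 8.96 in KO.

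In the remaining lists, the tetraspanin gene Cd9 (chr6:125426245-125426630, intronic) had 2.99, 1.64 and 2.34 RPPM in C BMPC and 5.34 and 7.09 in KO, and both KO nB libraries were at 0. Rap1gap2, which switches off the GTPase Rap1, had 5.46, 3.47 and 4.52 in C and 12.3 and 13.3 in KO, and a region 5708 bp from the homing receptor gene Ccr7 had 1.56, 1.64 and 0.779 in C and 3.77 and 3.17 in KO.

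Because of their roles in plasma cells and as E proteins or their partners, 3 more members were picked after their values were seen. A region of Prdm1, which encodes Blimp-1, had 1.95, 2.01 and 2.18 RPPM in C BMPC and 5.71 and 3.55 in KO. A region of Tcf4, which encodes the E protein E2-2, was at 0 in all 5 nB libraries, at 2.34, 1.46 and 2.02 RPPM in C BMPC and at 9.47 and 5.41 in KO. A region of Id2, an inhibitor of E proteins, had 7.93, 6.57 and 8.25 in C BMPC and 12.4 and 14.9 in KO, with 13.2, 5.73, 3.95 and 3.50 in KO GCB. These values are of accessibility, and no expression was measured in the files used here.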

How the data were processed

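ATAC-seq reads in 66177 regions were analysed for 16 libraries. As given in the submitters' processing notes, the authors used Bowtie 1.1.1, Picard 1.127, MACS2 2.1.0.20140616 and edgeR 3.12.1 on mouse build mm9, and deposited 1 table of a union of peaks with values in RPPM (an RPM taken over the reads in all regions of a library). The authors' log2 fold changes, test scores and p-values, also deposited in that table, were not used. Whole reads were recovered from the deposited RPPM for 100% of 1058832 values (tolerance 0.01 reads). Members and gene lists were chosen with earlier results of these data known. limma 3.58.1 was fitted to log2(RPPM + 1) over all 16 libraries with a mean-dependent prior and Benjamini-Hochberg adjustment over 66177 regions. On the recovered reads edgeR 4.0.16 (quasi-likelihood) called 12789 regions higher and 6733 lower in KO GCB than in KO nB, and DESeq2 1.42.0 called 11078 and 6213. In simulated data limma recovered 95% of 200 regions changed 4-fold in KO GCB against KO nB and 87% in KO against C BMPC. The changed regions were drawn among those averaging at least 3 RPPM over all libraries, with a fixed spread between replicates. Recovery at lower levels or smaller differences, as in most members, was not measured. Replicates are libraries from separate mice or pools. Intervals and read limits cover counting error only. Named regions were the 10 with the largest BMPC gain ratio after adding 1 RPPM, the 5 highest in KO BMPC, all members of the 5 genes with most members (7 genes with ties), the top gain in each B lineage list, the 4 highest in KO GCB and in KO nB, up to 4 called each way in KO GCB against KO nB, and those nearest each limit. Motifs were searched on both strands of NCBIM37 in the central 300 bp, and shares over the 741 members and all regions with sequence are given. Promoter, exon, intron and symbol are the authors' annotation. The driver of Cre, 1 gene list and 1 set of marker promoters are not reported here.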

Additional observations from a re-analysis of the deposited data

Results flagged for a closer look

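Among the 4 KO GCB libraries, 1 library stood far from the other 3 in 4 of 63 named members, and chance flags about 1 in 20 such groups. KO GCB replicate 1, the shallowest library, was apart in 3 of them, with 2.20 RPPM at a region near Ankrd55, 0 at a region of Celf2 and 20.9 at the region of Tchp. These values stood for 2, 0 and 19 reads. The other KO GCB libraries held 1 read each at Ankrd55 and 3, 4 and 3 reads at Celf2, so both of these rest on few reads. KO GCB replicate 2 was apart with 1.91 RPPM (3 reads) at a region without a symbol on chromosome 5, where the other 3 were at 0.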

How the results depend on the processing

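Changing 1 setting at a time, the number of regions that met the rule was 230 with KO at least 2 times C, 174 with C nB and C GCB also at most 1 RPPM, and 706 to 1243 when 1 library the rule uses was left out (1243 without BMPC KO replicate 1 and 1193 without BMPC KO replicate 2). Rescaling by TMM kept 624 of the 743 members and quantile normalization 452. For KO GCB against KO nB, members called higher numbered 8 with a pseudocount of 5 RPPM, 47 with quantile normalization, 75 with the compared groups only and 70 to 205 with 1 library left out. Members called lower numbered 0 with a pseudocount of 5 RPPM and with the compared groups only, 4 with TMM scaling and with edgeR's likelihood ratio test, and 20 with quantile normalization. Over all regions, the counts in this order were 2366, 4085, 6449, 7062 and 7477. With 1 KO GCB library left out, 2 to 5 members were called lower, and 5128 to 5568 of all regions. Fewer members were called either way with 1 KO nB library left out. For KO against C BMPC, the contrast of the rule, members called higher numbered 1 and 50 with pseudocounts of 0.1 and 5 RPPM, 2 with quantile normalization, 74 with the compared groups only, 308 with edgeR's quasi-likelihood test, 407 with its likelihood ratio test, 101 with DESeq2 and 79 at an adjusted p of 0.05. Over all regions, the counts in this order were 43, 94, 12, 159, 962, 1329, 409 and 359. With 1 C BMPC library left out, 1 to 6 members were called higher, and 10 to 105 of all regions. With 1 KO BMPC library left out, the median log2 difference was 1.10 or 1.01 in members and 0.01 or 0.05 over all regions. At an adjusted p of 0.05, 5 members were higher in KO than in C GCB, where 113 of all regions were. CACCTG was in 58.0% of whole members, 31.0% of their central 150 bp and 52.0% of members with C nB and C GCB at most 1 RPPM, CAGCTG in 40.2% and 21.1% of the first pair, and the composite in 23.2%, 11.3% and 9.83%. Of 24 named regions called in KO GCB against KO nB, 6 were called under all 16 alternatives and 0 turned direction; Map3k1 and Cryaa were lost when single libraries were left out, and Nfatc2 and Il6ra under a pseudocount of 5 RPPM, with a log2 difference of 0.96 and 0.81. The cause was not tested. Of the groups compared, KO and C GCB alone share labels (1 female and 1 male pool each), and the deviations of these 2 pairs of pools correlated at 0.03 and 0.04, so no pairing was shown. With this replicate block, which rests on those 4 pools, 5 members were higher in KO than in C GCB, and 0 with the sex of the pool as a block. Over all regions, 107 and 14 were called higher in these fits. With the male KO GCB library only, the median log2 difference from KO nB was 0.73 in members and 0.10 over all regions. These 3 fits were chosen after seeing the data. In nB and GCB libraries 44.3% to 67.3% of members were at or under 3 reads, so low levels there are imprecise.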
